A study of Mus musculus with 6 samples.

Results

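The Slit ligands and their Robo receptors were examined in mammary tumors of BK5.ATF3 mice. The genes were taken by gene symbol from the table of expression values, and 5 of its 15280 genes are described here, the ligands *Slit2* and *Slit3* and the receptors *Robo1*, *Robo2* and *Robo4*. A further ligand gene of the family, *Slit1*, is also listed in the table and is given beside them, and *Robo3* was not analysed here. Of the 5 genes, *Slit2*, *Slit3* and *Robo1* rose about 3- to 4-fold in the tumors. *Robo2* and *Robo4* changed by less than 2-fold. *Robo4* was lower in all 3 tumors than in the glands, and *Robo2* was higher in the tumor than in the gland of each mouse. Which of them passed the p threshold depended on the fit. In limma without the mouse as a block the adjusted p was 0.112 for *Robo2* and 0.0466 for *Robo4*. With the block it was 0.0401 for *Robo2* and 0.0708 for *Robo4*.

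Total RNA was sequenced from 3 tumors, T11035, T11640 and T9232, and from a normal gland adjacent to each tumor, M11035, M11640 and M9232, where the number names the mouse (n = 3 for each tissue). All animals were female transgenic mice that had raised 1 litter, had tumors appear at 6 to 12 months of age, and were killed at a tumor length of 1.5 cm. In BK5.ATF3 mice the bovine cytokeratin-5 promoter drives the transcription factor ATF3 in basal epithelial cells. Since the glands carry the transgene too, the comparison is of tumor with gland and not of transgenic with wild-type tissue, and the labels give no strain.

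Slits are large secreted proteins that bind the first immunoglobulin domain of Robo receptors, with heparan sulfate chains on the cell surface as part of the complex. In neurons the pathway repels growing axons, through adaptors that reach the actin cytoskeleton. In the mammary gland it is known for holding the luminal and basal layers of the ducts together and for restraining branching, and ROBO4 is known as the receptor of blood vessel endothelium. These statements are background and were not measured here.

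Values are CPM, the fragments on a gene scaled by edgeR's effective library size, with 4750989 to 7806908 fragments on genes per library, so that 3 fragments, taken as the floor, correspond to 0.393 to 0.610 CPM. A gene was called when its adjusted p was at most 0.05 (limma, two-sided, Benjamini-Hochberg over 15280 genes) and its fold change on the log2(CPM + 0.5) scale was at least 2. By this rule 2212 genes (14.5%) were called higher in the tumors and 2097 (13.7%) lower. All 3 tumors lay above all 3 glands for 27.6% of the genes and below them for 26.3%.

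The tissues also differed in their cell type markers. The summed level of 8 squamous keratinocyte markers was 8.95 to 10.8 CPM in the glands and 2697 to 4126 CPM in the tumors, with 8 of 8 called higher. The 10 adipocyte markers, among them *Adipoq*, summed to 3428 to 6728 CPM in the glands and 160 to 221 CPM in the tumors, and 10 of 10 were called lower. Skeletal muscle markers stood at 4017 CPM in gland M11035 and 1534 CPM in gland M11640 but at 5.06 CPM in gland M9232. In bulk tissue, fewer cells of a type and less RNA per cell cannot be told apart.

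The promoters of the 3 genes that rose and of *Robo4*, which was lower in all 3 tumors but not called, are shown so that their make-up can be compared. They are the 250 bases before the RefSeq gene start in the mouse assembly GRCm38.p6, a later build than the mm9 of the expression values, all on the plus strand. Capitals mark a match to a GC box or TATA motif in *Slit2*, a GC box in *Slit3* and a TCF/LEF core in *Robo4*. *Slit2* lies at chr5:47982905-47983154, *Slit3* at chr11:35121206-35121455, *Robo1* at chr16:72662899-72663148 and *Robo4* at chr9:37401722-37401971.
Slit2: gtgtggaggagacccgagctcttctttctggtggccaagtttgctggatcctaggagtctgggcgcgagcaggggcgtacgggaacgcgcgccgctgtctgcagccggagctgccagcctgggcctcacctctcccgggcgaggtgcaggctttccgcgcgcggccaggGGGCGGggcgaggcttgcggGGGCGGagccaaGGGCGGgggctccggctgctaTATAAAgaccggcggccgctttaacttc
Slit3: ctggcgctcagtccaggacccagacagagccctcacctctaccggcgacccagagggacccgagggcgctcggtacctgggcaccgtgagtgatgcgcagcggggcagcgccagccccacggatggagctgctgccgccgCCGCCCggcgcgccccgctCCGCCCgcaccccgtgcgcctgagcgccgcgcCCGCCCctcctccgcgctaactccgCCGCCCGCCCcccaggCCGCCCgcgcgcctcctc
Robo1: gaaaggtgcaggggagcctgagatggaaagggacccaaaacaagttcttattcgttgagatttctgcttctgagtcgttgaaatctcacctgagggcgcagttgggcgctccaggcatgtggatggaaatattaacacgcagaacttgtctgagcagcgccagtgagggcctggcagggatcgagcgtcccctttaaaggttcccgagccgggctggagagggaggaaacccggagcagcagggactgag
Robo4: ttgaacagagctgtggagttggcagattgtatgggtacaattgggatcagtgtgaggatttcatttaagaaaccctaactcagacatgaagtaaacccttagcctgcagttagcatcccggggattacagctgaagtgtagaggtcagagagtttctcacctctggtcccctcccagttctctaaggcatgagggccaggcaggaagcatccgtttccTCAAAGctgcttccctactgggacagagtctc

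All 5 genes matched by symbol, in 7 windows, of which 3 belong to *Robo2*. The windows of *Slit2* and *Slit3* had a GC content of 69.6% and 78.8% and held 25 and 35 CpG dinucleotides, against a median GC content of 52.4% over 32851 promoters. The *Robo1* window had 56.0% GC and 11 CpG, and the *Robo4* window 49.6% GC and 2 CpG. Of 7 motifs searched on both strands, the GC box GGGCGG, present in 32.7% of all promoters, matched at 3 places in *Slit2* and at 6 in *Slit3*, where 2 of the matches overlap. *Slit2* also held a TATAAA 28 bases before the start (12.4% of promoters), and *Robo4* held the TCF/LEF core CTTTGA, read as TCAAAG on the printed strand (13.8%). The full cyclic AMP response element TGACGTCA (1.55%), which ATF/CREB proteins are known to bind, its shorter form TGACG (17.8%, also part of the full element), the AP-1 site TGANTCA (6.75%) and the ETS core CCGGAA (12.0%) had no match in any window of the 5 genes. A match is only a match of letters, and the lack of one says only that the letters are not in these windows.

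*Slit2*, a ligand gene on chromosome 5 (mm9, 48374394 to 48697521, plus strand), was measured at 14.2, 22.8 and 22.3 CPM in the 3 glands, in the order M11035, M11640 and M9232 kept below, and the tumors of these mice had 77.2, 95.02 and 83.5 CPM. Every tumor was above every gland, and the 3 tumors were close to each other. The mean was 19.8 ± 4.81 CPM in glands and 85.2 ± 9.03 CPM in tumors (SD, n = 3). The log2 fold change was 2.11, with an SE of 0.21 and an adjusted p of 0.00011 (limma). This is 4.30-fold, with a 95% interval of 3.08- to 6.01-fold. The rise within the mice was 2.40, 2.04 and 1.88 on the log2 scale, so it was present in each of them. Over 15 alternative analyses the log2 fold change stayed between 1.89 and 2.22, and *Slit2* was called in all 15.

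*Slit3*, a second ligand gene, lies on chromosome 11 (34934726 to 35522009, plus strand). Its glands had 22.2, 58.3 and 44.9 CPM and its tumors 87.5, 131 and 148 CPM. The groups did not overlap, but the glands were spread more widely than for *Slit2*, with gland M11035 well under the other two. The mean was 41.8 ± 18.3 CPM in glands and 122 ± 31.3 CPM in tumors. The log2 fold change was 1.61 with an SE of 0.35, or 3.05-fold with an interval of 1.76 to 5.28, at an adjusted p of 0.00624 (limma). *Slit3* was called in all 15 alternatives, with log2 fold changes from 1.21 to 1.90 and a highest adjusted p of 0.0329.

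The 2 ligand genes were then compared in their change. The log2 difference of *Slit2* from *Slit3* was -0.98 ± 0.36 in the glands and -0.49 ± 0.32 in the tumors, which is 0.50 higher in the tumors and higher in 3 of 3 mice, by 0.17 to 0.88. The tissues overlapped, and an exact two-sided permutation test gave p = 0.2 (0.3 adjusted over the 3 such contrasts made), where 0.1 is the smallest p that 3 against 3 can give. A larger rise of *Slit2* than of *Slit3* was therefore not shown.

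Fibroblast markers were set beside the ligands. The 10 markers summed to 1026, 4459 and 1961 CPM in the glands, and each tumor had between 8552 and 9267 CPM of them. *Slit2* and *Slit3* were both lowest in the same gland as these markers and both highest in the same gland. Over the tumors *Slit2* had the order of the markers and *Slit3* did not. Of the 10, 5 were called higher, among them the 3 collagen genes, *Dpt* was called lower, and 4 were not called, among them *Dcn*, with a log2 fold change of 0.09, *Pdgfra*, with -0.23, and *Pi16*, with -0.03. *Col1a1* had the largest rise, with 72.8 ± 43.5 CPM in glands and 1636 ± 81.9 CPM in tumors. The part of fibroblast content in the levels of *Slit2* and *Slit3* was not tested.

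*Slit1* (chromosome 19, 41674747 to 41818155, minus strand) was at or near 0 in the glands, with 1, 0 and 3 fragments. In the tumors 25, 39 and 46 fragments were counted, or 4.65, 5.11 and 6.89 CPM. All 3 tumors were above all 3 glands, and all gland values were at or under the floor. Over the group, 110 fragments against 4 gave a ratio of 25.6 per effective fragment, with an exact 95% counting interval of 9.70 to 95.4, which covers counting error only. The gene was called (adjusted p 0.000197, limma) and was called in all 15 alternatives, but its fitted log2 fold change ranged from 2.44 to 4.69 with the pseudocount and tool and is no measure of size.

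**Figure D1:**
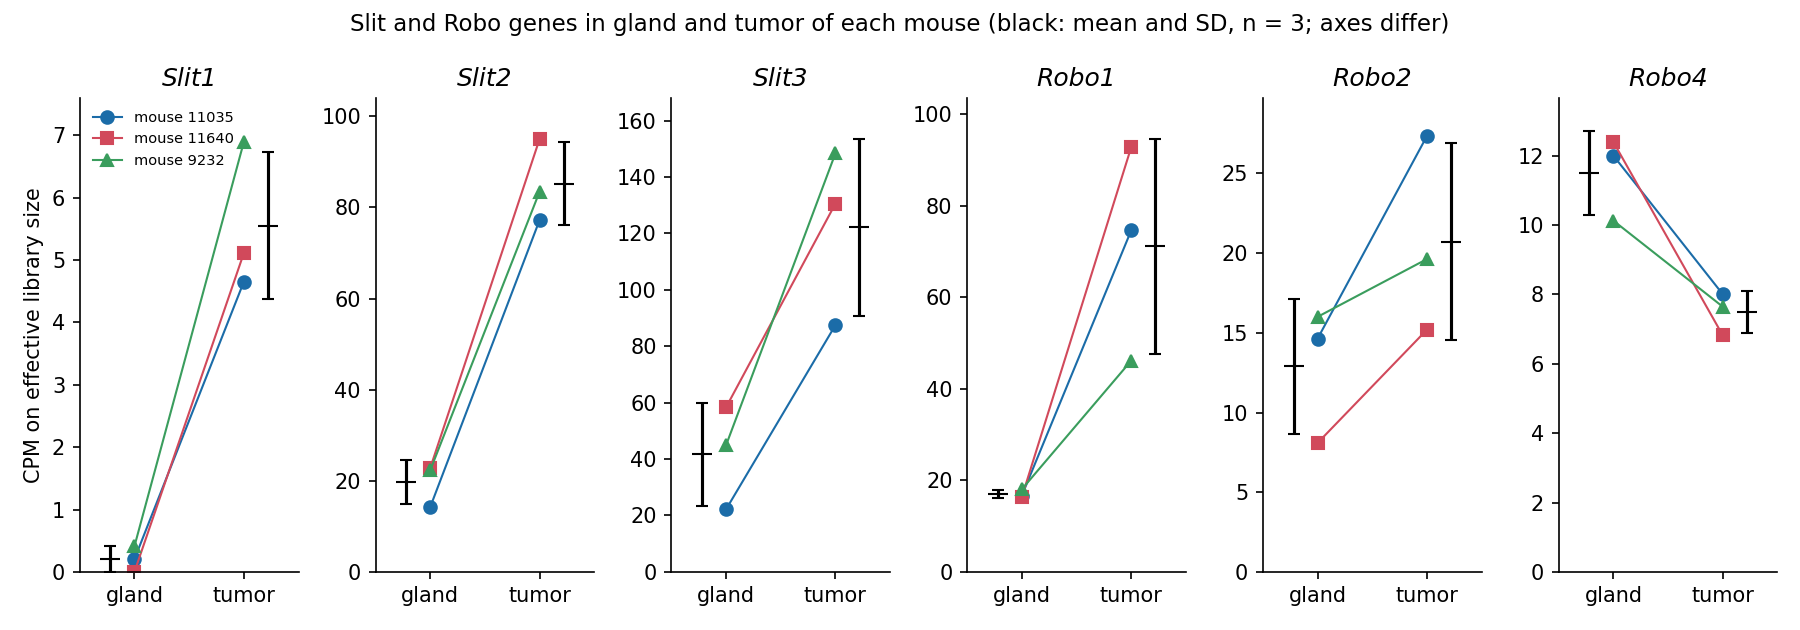
Expression of the Slit and Robo genes in each library, in CPM on the effective library size (vertical axes start at 0 and differ between genes), with gland and tumor of each mouse joined by a line and black bars for mean and SD (n = 3). The tumor points of Slit1, Slit2, Slit3 and Robo1 lie above all gland points, those of Robo4 below, and those of Robo2 overlap with the glands, since tumor T11640 at 15.2 CPM is under gland M9232 at 16.004 CPM.

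Among the receptors, *Robo1* had the largest fold change. ROBO1 is the receptor through which Slits are known to act in the mammary ducts, and its gene lies on chromosome 16 (72663394 to 73046340, plus strand). The glands had 16.7, 16.4 and 18.1 CPM and the tumors 74.6, 92.8 and 46.2 CPM. The glands were nearly equal, with a coefficient of variation of 5.32%, under the 11.04% that counting alone gives at the fewest fragments, whereas the tumors varied by 33.0%, with T9232 the lowest. The mean was 17.0 ± 0.91 CPM in glands and 71.2 ± 23.5 CPM in tumors. The log2 fold change was 1.98, with an SE of 0.25 and an adjusted p of 0.000382 (limma), or 3.93-fold with an interval of 2.65 to 5.84. *Robo1* was called in all 15 alternatives, with log2 fold changes from 1.76 to 2.26.

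Markers of basal and myoepithelial cells were also measured, since the transgene is driven in basal cells. The 8 markers summed to 375 to 815 CPM in the glands and to 1985 to 2243 CPM in the tumors, but they did not move as 1 group. *Krt14* and 2 others were called higher and 3, among them the oxytocin receptor gene *Oxtr*, were called lower. Each is 37.5% of the list, against 14.5% and 13.7% of all genes. The part of these cells in the level of *Robo1* was not tested.

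*Robo2*, best known from axon guidance and kidney development, is also on chromosome 16 (73892551 to 74412070, minus strand). Its glands had 14.6, 8.09 and 16.004 CPM and its tumors 27.4, 15.2 and 19.6 CPM. The groups overlapped, and gland M11640 and tumor T11640 of 1 mouse had the lowest value of their tissue. The means were 12.9 ± 4.23 and 20.7 ± 6.15 CPM. The log2 fold change was 0.68 with an SE of 0.31 and a 95% interval of -0.03 to 1.38, at an adjusted p of 0.112 (limma), so *Robo2* was not called. The tumor was above the gland in 3 of 3 mice, by 0.88, 0.87 and 0.29 on the log2 scale. With the mouse as a block the adjusted p was 0.0401 in limma and 0.0374 in edgeR, still without a 2-fold change. Without gland M11640 the log2 fold change was 0.39 and without tumor T11035 it was 0.46.

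The difference between these 2 receptor genes on chromosome 16 was tested directly. The log2 difference of *Robo1* from *Robo2* was 0.18, 0.97 and 0.17 in the glands and 1.43, 2.57 and 1.21 in the tumors. The tissues did not overlap, and the difference was 1.30 higher in the tumors and higher in 3 of 3 mice, by 1.04 to 1.60. The exact two-sided permutation p was 0.1, the smallest that this design can give (0.3 adjusted over 3 contrasts), so it cannot pass a threshold of 0.05.

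*Robo4*, the endothelial receptor gene on chromosome 9 (37209482 to 37221608, plus strand), went the other way. It had 12.0, 12.4 and 10.1 CPM in the glands and 8.001, 6.81 and 7.64 CPM in the tumors. Each tumor was below each gland, and the spread within a tissue was small. The means were 11.5 ± 1.21 and 7.49 ± 0.61 CPM. The log2 fold change was -0.59 with an SE of 0.20 and an interval of -1.05 to -0.12, which puts the glands 1.50-fold above the tumors. The adjusted p was 0.0466 (limma), but the change was under 2-fold, so *Robo4* was not called. These values rest on 43 to 75 fragments per library, and the adjusted p was over 0.05 in 10 of 15 alternatives, among them each of the 6 that leave out 1 library (0.0595 to 0.154) and the fits with the mouse as a block (0.0708 in limma, 0.0650 in edgeR).

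Other endothelial genes were set beside *Robo4*. Of 16 markers, 5 (31.25%) were called lower, *Tek*, *Kdr*, *Sox17*, *Vwf* and *Icam2*, and 0 higher, against 13.7% and 14.5% of all genes. The median log2 fold change of the 16 markers was -0.49, against -0.0028 over all genes. For 8 of the 16 all tumors lay below all glands, against 26.3% of all genes. The summed marker level was 471 to 627 CPM in the glands and 298 to 413 CPM in the tumors. *Tek*, the angiopoietin receptor gene, fell most, from 68.4 ± 30.0 to 25.3 ± 4.82 CPM. *Pecam1*, the most abundant marker, had 131 ± 19.8 CPM in glands and 79.2 ± 19.1 CPM in tumors. Every tumor was below every gland, at an adjusted p of 0.0170 (limma), but the change was under 2-fold, so *Pecam1* was not called. *Emcn* had 20.9 ± 5.08 and 25.4 ± 4.50 CPM (adjusted p 0.356, limma).

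Relative to the mean log2 level of these 16 markers, *Robo4* stood at -0.68 ± 0.08 in the glands and at -0.66 ± 0.19 in the tumors. The difference of 0.02 had an exact two-sided permutation p of 0.9, and in single mice it ran from -0.09 to 0.15. Its sign depended on the libraries and markers used, being -0.02 without gland M11640, -0.09 without tumor T11035 and -0.18 against *Cdh5*, *Tie1* and *Pecam1* only. Thus *Robo4* and the endothelial markers were not shown to differ in their change, and 3 against 3 libraries cannot give a p under 0.1.

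**Figure D2:**
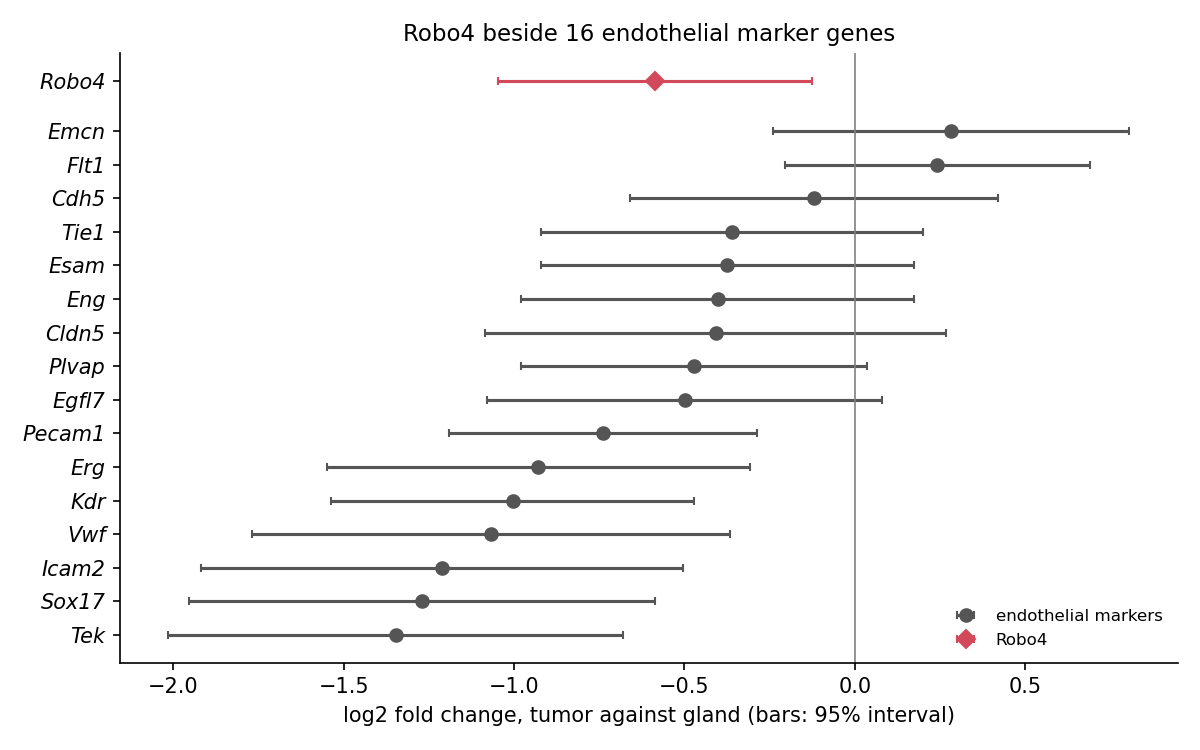
Log2 fold change of tumor against gland for Robo4 (diamond) and 16 endothelial marker genes (circles), with 95% intervals from limma (n = 3 for each tissue). Robo4, at -0.59, lies inside the range of the markers, which runs from -1.35 for Tek to 0.28 for Emcn.

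**Figure D3:**
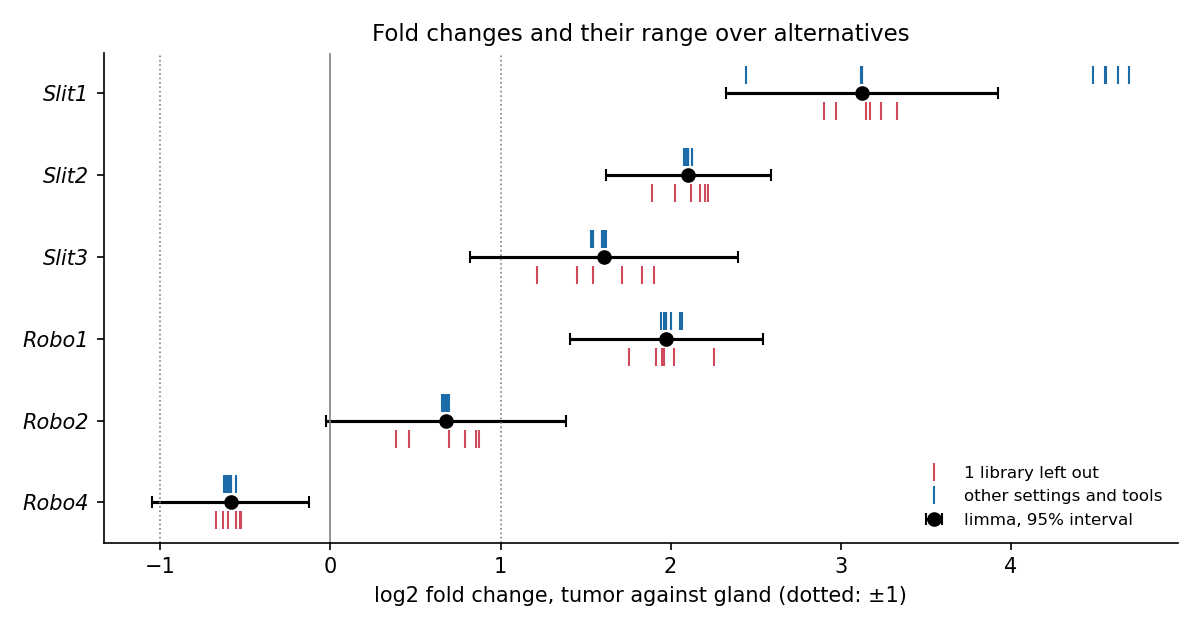
Log2 fold change of tumor against gland (points, with 95% intervals from limma) for the 6 genes, with red ticks for fits that leave out 1 library and blue ticks for other pseudocounts, filters, scalings and tools. All ticks of Slit2, Slit3 and Robo1 stay beyond the dotted line at 1, those of Robo2 and Robo4 stay between the dotted lines, and the blue ticks of Slit1 run from 2.44 to 4.69.

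Levels of different genes were compared per kb of exon, since a longer transcript yields more fragments. In the glands *Slit3* was highest at 6.89 ± 3.01 CPM per kb, followed by *Robo4* at 2.80 ± 0.29, *Robo1* at 1.78 ± 0.09, *Slit2* at 1.31 ± 0.32 and *Robo2* at 0.782 ± 0.256. Of these neighbours, *Slit2* and *Robo2* overlapped between libraries. In the tumors *Slit3* was again highest, at 20.1 ± 5.16 CPM per kb, followed by *Robo1* at 7.46 ± 2.46 and *Slit2* at 5.65 ± 0.60, which overlapped each other. *Robo4* at 1.82 ± 0.15, *Robo2* at 1.26 ± 0.37 and *Slit1* at 0.938 ± 0.200 were lowest. Exon lengths of *Slit2* and *Robo2*, 15.1 and 16.5 kb over all annotated exons, were about double their longest coding transcripts of 8.05 and 8.12 kb. With those transcripts as the length, a choice made after seeing the data, *Robo2* stood above *Robo4* in the tumors (2.55 against 1.93 CPM per kb) and *Slit2* above *Robo1* in both tissues (2.46 against 2.25 in glands, 10.6 against 9.41 in tumors), with libraries that overlapped in each case.

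The make-up of each family is given next, as the share of each gene in the summed level per kb. The summed Slit level per kb was 8.23 ± 3.30 in the glands and 26.7 ± 5.67 in the tumors, and *Slit3* made up 82.7 ± 3.76% and 74.8 ± 3.78% of it. *Slit3* was thus the main ligand transcript in both tissues, with a share of 78.9, 86.4 and 82.7% in the glands and of 70.9, 75.0 and 78.5% in the tumors. Every tumor was below every gland, by 78.5 against 78.9% at the closest, but the tissues overlapped with the longest coding transcript as the length. The summed Robo level per kb was 5.37 ± 0.17 in the glands and 10.5 ± 2.34 in the tumors. *Robo4* made up 52.6, 57.8 and 46.3% of it in the glands and 17.1, 13.5 and 23.6% in the tumors. *Robo1* made up 31.4, 32.8 and 35.5% in the glands and 68.4, 79.0 and 61.3% in the tumors. The leading receptor transcript was therefore *Robo4* in each gland and *Robo1* in each tumor, also with the longest coding transcript as the length. In bulk tissue the Robo shares mix transcripts of different cell types, and ROBO4 is known from endothelium. The Slit and Robo shares restate the levels given above and were not tested, and a change in the Slit make-up was not shown.

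**Figure D4:**
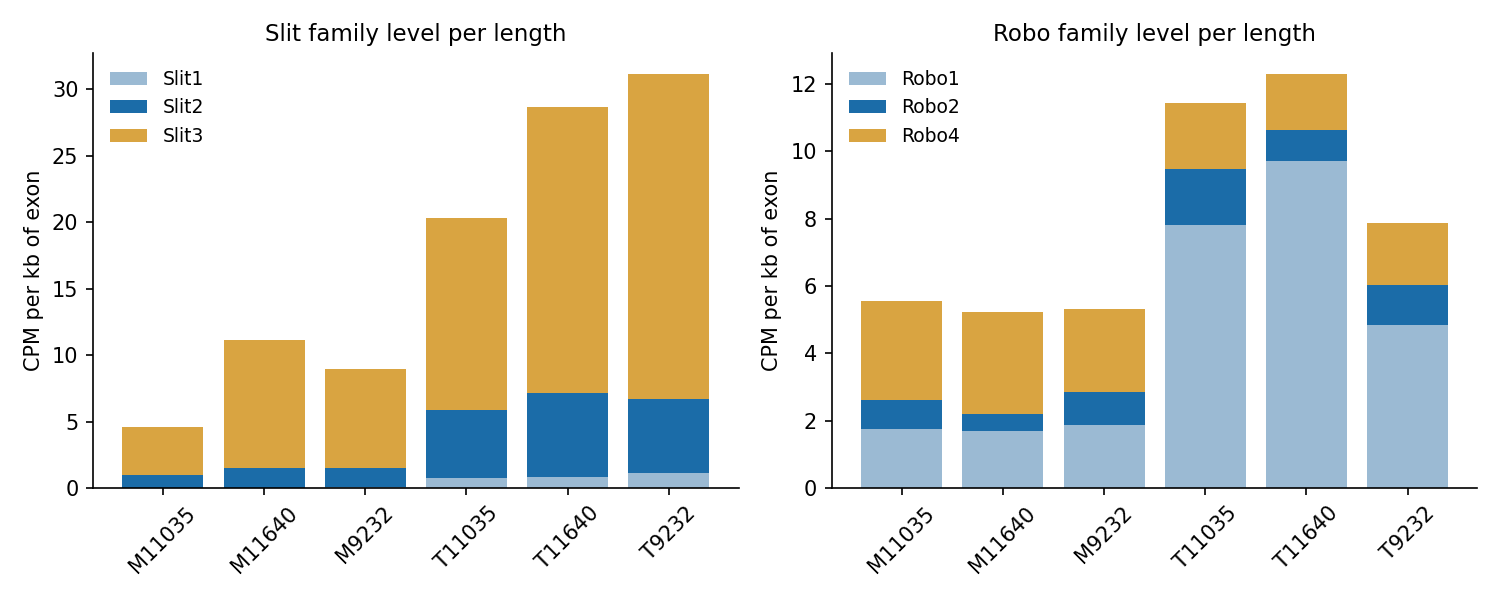
Stacked levels of the Slit genes (left) and Robo genes (right) in each library, in CPM per kb of exon, so that segments can be compared between genes (axes start at 0). Slit3 is the largest segment of every Slit bar, and the largest Robo segment is Robo4 in the 3 glands (M) and Robo1 in the 3 tumors (T).

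Few of the genes that carry the signal inside the cell were called. Of 29 intracellular effectors of Slit and Robo, 1 was called higher and 2 lower (3.45% and 6.90%, against 14.5% and 13.7% of all genes), and their median log2 fold change was 0.16. The srGAPs, GTPase activating proteins that bind ROBO1, were not called, with *Srgap1* at -0.27, *Srgap2* at 0.47 and *Srgap3* at 0.16 on the log2 scale. The gene called higher was *Enah*, an actin regulator of the Ena/VASP family that binds the tail of Robo receptors. *Enah* stood at 15.7, 19.5 and 18.9 CPM in the glands and 163, 131 and 112 CPM in the tumors. It had a log2 fold change of 2.87, an SE of 0.18 and an adjusted p of 1.15e-05 (limma). *Cdc42*, the most abundant effector that was not called, had 508 ± 39.5 CPM in glands and 599 ± 140 CPM in tumors.

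Of the effectors called lower, the protein kinase C gene *Prkca* dropped from 61.1 ± 10.1 to 24.6 ± 4.26 CPM. *Cap2*, an actin-binding protein gene that is high in muscle, had 27.0, 17.7 and 2.33 CPM in the glands, and its tumors lay between 0.450 and 0.930 CPM. Its order over the glands was that of the skeletal muscle markers, whose part in the fall was not tested. The count of effectors called higher was 2 with edgeR and with the mouse as a block in edgeR, 3 without gland M9232 and 2 without tumor T9232.

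The listed heparan sulfate genes encode core proteins and enzymes that make or modify the chains that hold Slit to Robo. Of 23, 7 were called higher and 0 lower (30.4% higher, against 14.5% of all genes), and the median log2 fold change was 0.72. In all 15 alternatives the count of 7 stayed within 1.5 times. *Sdc1*, the cell surface proteoglycan syndecan-1, had 14.2, 10.9 and 21.7 CPM in the glands and 173, 189 and 227 CPM in the tumors. Its log2 fold change was 3.66. *Hs6st2*, which adds sulfate to the chains, rose from 2.81 ± 0.84 to 47.8 ± 22.5 CPM, *Gpc1*, a glypican, from 2.59 ± 0.58 to 19.4 ± 2.10 CPM, and *Agrn*, the matrix proteoglycan agrin, from 36.0 ± 10.1 to 132 ± 6.21 CPM. The other 3 called genes were *Hspg2*, *Ext1* and *Sulf1*. The count of 7 covers genes of different roles and is no measure of how much chain is made. *Sdc4*, the most abundant gene of the list that was not called, had 74.9 ± 18.4 and 126 ± 42.1 CPM. The *Sdc1* protein is also known from squamous epithelium, whose markers rose as given above, and their part here was not tested.

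Another list held proteins known to bind Slits or Robos, together with *Cxcl12*, which is listed for its signal and not as a binder. Of its 10 genes, 3 were called higher and 1, *Cxcl12*, lower, against 14.5% and 13.7% of all genes. The median log2 fold change was 0.55. *Unc5b*, a netrin receptor gene whose protein binds ROBO4, rose from 5.43 ± 1.56 to 42.6 ± 11.2 CPM. *Flrt1*, from a family of Robo-binding membrane proteins, rose from 1.38 ± 0.48 to 10.3 ± 0.33 CPM, and *Plxna1*, a plexin that can bind Slit fragments, from 38.9 ± 5.90 to 86.2 ± 12.4 CPM. *Cxcl12*, a chemokine gene whose signal through CXCR4 Slits are known to counter, fell from 185 ± 9.11 to 47.5 ± 11.2 CPM. *Cxcl12* is also a product of stromal and fat tissue, whose adipocyte markers were lower in the tumors, and their part was not tested. *Dag1*, dystroglycan, which binds Slit directly, had 92.9 ± 21.3 and 94.1 ± 37.1 CPM.

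Other guidance families are given for comparison, to be read against the 14.5% of all genes called higher and 13.7% called lower. Of 18 ephrin and Eph receptor genes, 12 (66.7%) were called higher and 0 lower, with a median log2 fold change of 1.71, and *Epha3* rose most, from 3.19 ± 1.07 to 35.3 ± 14.5 CPM. Of 14 genes of class 3 semaphorins, neuropilins and plexins, 5 (35.7%) were called higher and 2 (14.3%) lower, the latter near the share of all genes, with a median of 0.70. *Sema3e* rose from 2.26 ± 2.33 to 14.1 ± 2.55 CPM and *Sema3b* fell from 6.36 ± 2.74 to 2.07 ± 0.67 CPM, while *Sema3g* had 1.16 to 2.24 CPM in the glands and no more than 3 fragments in any tumor. The 2 calls of a fall in that family were 0 without gland M11035 and 1 without gland M11640, tumor T11035 or tumor T11640. Of 10 netrin and netrin receptor genes, 2 were called higher and 2 lower, shares near those of all genes, with a median of 0.03, and the ones that fell were *Ntng1* and *Dscam*. The count called lower was 1 without gland M11035, gland M9232 or tumor T11640 and 3 without tumor T9232. Set beside these, *Slit2*, *Slit3* and 1 of 3 Robo receptor genes were called higher and 0 lower. *Slit1* was called higher too, but its gland values were at or under the floor. The lists share genes, since *Unc5b* and *Dcc* of the netrin list and *Plxna1* of the semaphorin list were also counted among the Slit and Robo partners above. No test was made of the families against each other.

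**Figure D5:**
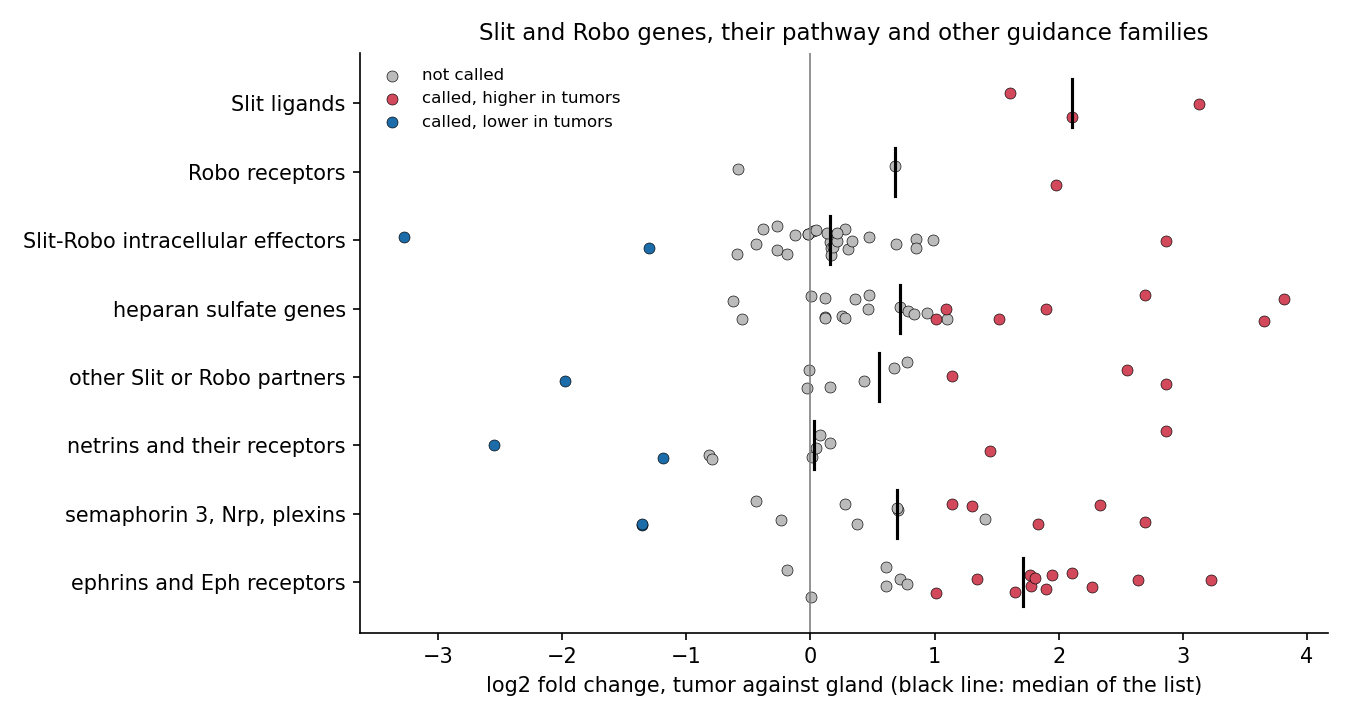
Log2 fold change of tumor against gland for each gene of the Slit and Robo families, of 3 lists of their pathway and of 3 other guidance families, with red for genes called higher, blue for genes called lower, grey for the rest and a black line at the median of each list. The effectors centre near 0, with a median of 0.16, while the Slit ligands and the ephrin and Eph genes lie mostly to the right, with medians of 2.11 and 1.71. The Slit list includes Slit1, whose gland values were at or under the floor.

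The profiles of the genes over the 6 libraries were compared with those of the genes whose mean reached 1 CPM, by the root mean square difference of log2(CPM + 0.5) after centring each gene on its own mean. This is a description over 6 libraries, 3 of each tissue, with 14711 genes compared. The profile most like that of *Slit2* was that of *Mical2*, an actin-oxidising enzyme gene, at 0.0549, followed by *Klc3* at 0.104 and *Lphn2* at 0.107. For *Slit3* they were *Layn*, *Pls3* and *Chi3l1* (0.110 to 0.150), for *Robo1* *Gm2115*, *Gm6251* and *Hsd17b7* (0.143 to 0.160), for *Robo2* *Traip*, *Nsl1* and *Cep72* (0.0901 to 0.122) and for *Robo4* *Pam16*, *Ric8b* and *C920021L13Rik* (0.0190 to 0.0382). Within the family, *Slit2* and *Robo1* were most alike at 0.345, and *Slit2* and *Slit3* stood at 0.373. The difference of *Slit3* from *Robo1* was 0.632. Many genes outside the family were thus closer to each member than the other members were, with *Slit2* at rank 138 among the genes most like *Robo1*.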

How the data were processed

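Per the labels and the study's methods, RNA was extracted with Trizol, libraries were prepared with a NuGEN Ovation RNA-Seq System V2 kit, and the submitters' processing notes name CASAVA 1.8.2, TopHat2 2.0.3, HTSeq 0.5.3p9, edgeR 3.6.1 and the mm9 build. The authors counted fragments per RefSeq gene, removed genes under 10 fragments in all, and deposited for each gene a normalized expression signal, in CPM on edgeR's effective library size. Columns sum to 952151 to 1041166 and not to 1 shared total, so the unit was taken as a signal and not as the CPM planned for, with the same test. Division by the smallest step of each library gave whole fragments for 100% of values (tolerance 0.01). In all, 0 columns were left out.

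All 15280 genes were tested on log2(CPM + 0.5) in limma 3.58.1 (R 4.3.3), without a block and with the trend option. Alternatives were pseudocounts of 0.1 and 1, a mean of at least 1 CPM, plain totals, edgeR 4.0.16 (2238 genes called higher and 2224 lower) and DESeq2 1.42.0 on recovered fragments, the mouse as a block, and each library left out. Tumor and gland of a number come from 1 animal, which pairs them, and their deviations correlated at 0.107, 0.151 and 0.0168 in mice 11035, 11640 and 9232. Mice were separate animals. No 2 libraries of a tissue were copies (lowest chi-square per degree of freedom 13.0).

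The genes and lists were chosen with earlier results of these data known. Named from each pathway or guidance list were up to 4 called genes with the largest rise and 4 with the largest fall and the most abundant gene not called, from each cell type list the highest and lowest fold change and highest mean, and for likeness the 3 closest profiles. *Hspg2*, *Ext1*, *Sulf1*, the srGAPs and the called endothelial markers were named after their values were seen. Some genes that the rule names are left out. Exon lengths and positions are from GENCODE vM1 on mm9, and promoters are from RefSeq. Exons of the Slit and Robo genes overlapped 0 other genes of the table, and 0 windows of 76 bases of their coding transcripts occurred in other genes. The kit's counting is not stated to use strand. Pericyte, luminal, leukocyte and Schwann markers were called higher in 1 of 7, 3 of 8, 0 of 8 and 0 of 5 and lower in 1, 4, 5 and 3. Of all genes, 14.5% were called higher and 13.7% lower.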

Additional observations from a re-analysis of the deposited data

How the results depend on the processing

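Of 334 values of 29 results recomputed under the alternatives, 308 kept their direction and side of the threshold or moved by less than the limit set for them, 3 changed sign and 23 moved further. The calls of *Slit1*, *Slit2*, *Slit3* and *Robo1* held in all 15 alternatives, and *Robo2* and *Robo4* were called in 0 of them. Intracellular effectors called higher went from 1 to 2 with a pseudocount of 0.1, with edgeR with and without its expression filter, with DESeq2 and with edgeR with the mouse as a block, and were 1 to 3 when 1 library was left out. Netrin genes called lower went from 2 to 1 with a pseudocount of 1, with edgeR's expression filter, with DESeq2 and with edgeR with the mouse as a block, and were 1 to 3 when 1 library was left out. Semaphorin family genes called lower went from 2 to 1 with a pseudocount of 1 and with edgeR's expression filter, and were 0 to 2 when 1 library was left out. The difference of *Robo4* from the endothelial markers, 0.02, ran from -0.0891 to 0.0821 when 1 library was left out, with -0.0175 without gland M11640 and -0.0891 without tumor T11035, and was -0.179 with 3 markers. With the longest coding transcript as the length, an alternative chosen after seeing the data, the *Slit3* share was 75.0% in glands and 66.3% in tumors, and the *Robo4* share in glands was 43.8%. The cause of these moves was not tested, except that a left-out library leaves fewer samples.

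With the mouse as a replicate block the log2 fold changes of limma were unchanged, and the adjusted p of *Robo2* was 0.0401 and that of *Robo4* 0.0708. No call of a Slit or Robo gene changed under the block. Depth limits *Slit1* in the glands, where 0 to 3 fragments were counted, and *Robo4*, with 43 to 75 fragments. The permutation tests cannot go below p = 0.1.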
